A study of Mus musculus with 4 samples.

Results

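The Src-family kinases Lyn, Fgr, Fyn and Src, the downstream kinases Syk and Btk, the Src-inhibiting kinase Csk and the phosphatases Ptpn6 (SHP-1) and Ptpn11 (SHP-2) were examined in mouse macrophages. These 9 genes were chosen by name as proximal tyrosine kinases and phosphatases of myeloid cells, and each matched 1 of the 55536 annotated genes. The RNA came from the cytosolic fraction of primary bone marrow-derived macrophages of C57BL/6J mice, cells grown out of marrow, treated with lipid A at 100 ng/ml for 15 minutes. Lipid A is the part of bacterial lipopolysaccharide that Toll-like receptor 4 recognises. The 4 libraries, made from total RNA after ribosomal RNA was depleted, form 1 group and are labelled biological replicates 1 to 4. No unstimulated cells and no other fraction were analysed here, so every value is a level in stimulated cells, and comparisons between groups could not be made. A single donor record is listed for every replicate, and separate cultures or animals are not stated. The p-values below thus measure library-to-library spread, which may be technical.

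Receptors of macrophages that carry an activating motif (ITAM) are phosphorylated by Src-family kinases, and the phosphorylated motif recruits Syk through its tandem SH2 domains. Receptors with an inhibitory motif (ITIM) are phosphorylated by the same kinases and recruit the SH2-domain phosphatases. Csk phosphorylates the inhibitory tail tyrosine of Src-family kinases, and Btk, a Tec-family kinase, acts on phospholipase C gamma.

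Libraries held 30088678 to 47961117 expected counts on annotated genes, replicate 1 being the shallowest. All 10 macrophage markers were above 1 TPM, a length-corrected relative abundance, and summed to 5368 to 8743 TPM. In bulk RNA, fewer cells of a type and less RNA per cell cannot be told apart. Of the B cell markers 2 of 9 averaged at least 1 TPM, Cd22 and Ighm, with sums of 3.57 to 12.52 TPM, and of the neutrophil markers 3 of 9 did, S100a8, S100a9 and Ngp, with sums of 20.93 to 40.79 TPM. The markers of T and NK cells, mast cells and basophils, platelets, erythroid, dendritic and stromal cells all averaged under 1 TPM, and no list summed to more than 1.97 TPM in any library. Replicate 1 stood apart from the other libraries. The common coefficient of variation between libraries was 0.327 over all 4 and 0.226 without replicate 1. Replicate 1 is also among the other 3 in the tests of replicates 2, 3 and 4, so few calls there do not show that libraries are alike. Against the other 3 it differed in 3096 of 14041 genes tested, while replicates 2, 3 and 4 each differed from their other 3 in 0 (edgeR's quasi-likelihood test, Benjamini-Hochberg adjusted p under 0.05).

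Several of these genes have alternative coding forms, and the stretches that set most of these forms apart are given first because the transcript shares below turn on them. The coding bases are from the GENCODE M21 transcripts on mm10, 5′ to 3′, with the alternative stretch in capitals and neighbouring coding bases in lower case. In Lyn, the longer form, Lyn-201, extends a coding exon by 63 bases. These 21 codons lie in the unique region before the SH3 domain, and the form with them is known as LynA, that without as LynB. In Fyn, alternative exons cover the linker before the kinase domain and the start of that domain. The exon of Fyn-201, at chr10:39529919-39530074 on the plus strand, has 156 bases and defines the form known as FynT from T cells. The exon of Fyn-202, at chr10:39529437-39529601, has 165 bases and defines FynB, the form known from brain.
Fyn-201: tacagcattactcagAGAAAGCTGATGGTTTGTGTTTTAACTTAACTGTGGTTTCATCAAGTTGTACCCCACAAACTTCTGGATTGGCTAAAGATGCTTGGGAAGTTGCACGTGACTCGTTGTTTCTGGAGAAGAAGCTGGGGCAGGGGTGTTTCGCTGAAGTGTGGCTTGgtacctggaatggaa
Fyn-202: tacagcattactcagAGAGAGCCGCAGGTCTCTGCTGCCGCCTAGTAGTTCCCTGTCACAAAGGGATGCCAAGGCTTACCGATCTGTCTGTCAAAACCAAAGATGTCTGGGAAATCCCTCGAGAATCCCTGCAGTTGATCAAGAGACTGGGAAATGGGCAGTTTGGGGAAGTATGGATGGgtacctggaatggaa
In Syk, a 69-base exon of 23 codons in the linker between the SH2 and kinase domains, at chr13:52624708-52624776 on the plus strand, is present in Syk-201 and Syk-203 and absent from Syk-202.
Syk-203: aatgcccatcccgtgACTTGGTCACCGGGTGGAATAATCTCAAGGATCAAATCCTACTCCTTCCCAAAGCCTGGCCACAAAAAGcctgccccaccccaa
Ptpn6 has alternative first coding exons on the minus strand, each spliced to the same bases. The proximal one, of 8 bases at chr6:124732946-124732953, belongs to Ptpn6-202, and the distal one, of 14 bases at chr6:124738499-124738512, to Ptpn6-201.
Ptpn6-202: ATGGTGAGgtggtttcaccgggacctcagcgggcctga
Ptpn6-201: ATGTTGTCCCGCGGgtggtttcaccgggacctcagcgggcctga
In Ptpn11, Ptpn11-201 carries 12 bases, or 4 codons, at chr5:121144685-121144696 on the minus strand that Ptpn11-202 lacks.
Ptpn11-201: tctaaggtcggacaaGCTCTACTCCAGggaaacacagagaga
In Src, an 18-base exon of 6 codons at chr2:157458843-157458860 on the plus strand, used in neurons, is part of Src-202 and Src-203.
Src-202: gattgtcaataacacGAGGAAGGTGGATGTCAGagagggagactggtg

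Among the Src-family members, Lyn was abundant and Fyn was lower. In TPM as deposited, Src and Fgr were below the limit of 1 TPM used for detection in every library. When TPM was rescaled without the abundant 7SL RNAs described below, Src averaged 2.03 TPM, above that limit, and Fgr stayed below it. Lyn (ENSMUSG00000042228.14, chr4:3678115-3813122, plus strand) had 69.96, 37.42, 35.08 and 56.00 TPM in replicates 1 to 4, from 8389.6 to 11343.0 expected counts. In TPM, replicates 1 and 4 were the high libraries. On the TMM-scaled counts used below, Lyn was highest in replicate 1 at 332.6 CPM. Replicate 4, at 235.9 CPM, was there below replicate 2, at 242.2 CPM. Lyn phosphorylates both activating and inhibitory receptor motifs in myeloid cells. Its exons overlap those of Gm26857, a noncoding gene on the opposite strand with 109.7, 115.0, 490.4 and 732.6 expected counts and the strand use in counting (not given in the sources used here) decides whether overlapping reads are separated.

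Fyn (ENSMUSG00000019843.14, chr10:39368855-39565381, plus strand), a kinase better known from T cells and neurons, had 8.83, 3.74, 3.26 and 5.36 TPM, and replicate 1 was again the highest. Cd3e, which defines T cells, had 0.0, 0.0, 1.0 and 0.0 expected counts. Src (ENSMUSG00000027646.15, chr2:157418444-157471862, plus strand), the kinase that names the family, had 0.56, 0.88, 0.89 and 0.91 TPM from 92.0 to 281.0 expected counts. In these values replicate 1 was below the other 3, which lay close together. That gap was absent from TPM on the target tables, which were estimated from reads without the alignment. Src had 0.309, 0.304, 0.280 and 0.283 TPM there, with replicate 1 the highest. Fgr (ENSMUSG00000028874.14, chr4:132974095-133001910, plus strand), a kinase known from neutrophils and monocytes, had 0.30, 0.24, 0.25 and 0.31 TPM from 45.0, 71.0, 59.0 and 65.0 expected counts. Its counts were above the floor of 3 counts in every library, yet its mean of 0.275 TPM was the lowest of the 9.

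**Figure D1:**
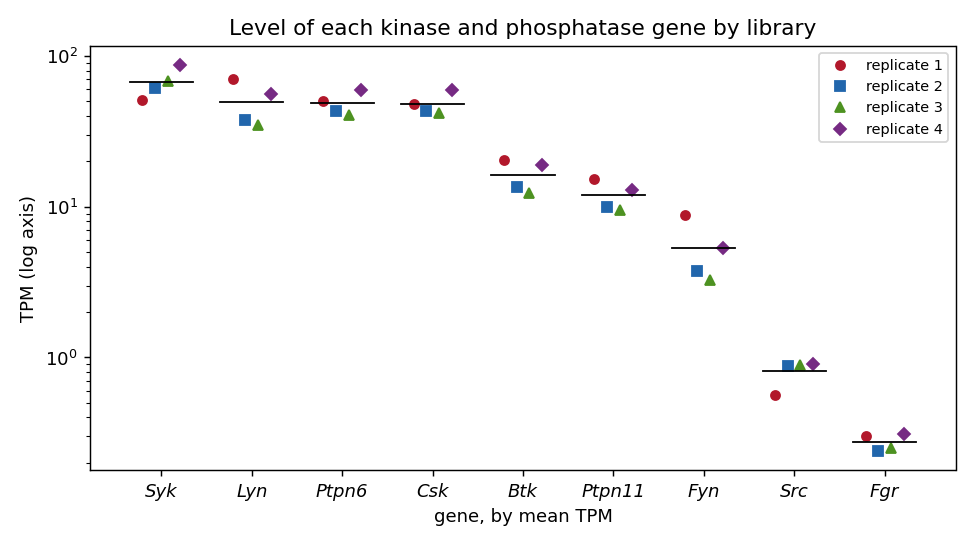
TPM (log axis) of each gene in each library, with genes ordered by mean TPM. Each point is 1 library and each bar is the mean of the 4, and Syk, Lyn, Ptpn6 and Csk overlap at the left while Src and Fgr sit below 1 TPM at the right.

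Lyn made up 87.83%, 88.51%, 88.86% and 89.49% of the summed TPM of Lyn, Fgr, Fyn and Src in replicates 1 to 4, or 88.67% ± 0.69 (SD, n = 4). The share was nearly the same in every library, although the sum itself was 79.65, 42.28, 39.48 and 62.58 TPM.

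On the log2(TPM + 1) scale, which understates differences that involve low genes, the level of Lyn exceeded that of Fyn by 2.85, 3.02, 3.08 and 3.16, with a mean of 3.03 ± 0.13 (SD, n = 4). It exceeded that of Src by 5.51, 4.35, 4.25 and 4.90 (4.75 ± 0.58) and that of Fgr by 5.77, 4.95, 4.85 and 5.44 (5.25 ± 0.43). All of these differences were above 0 in 4 of 4 libraries. The exact two-sided sign-flip permutation test gave p = 0.125 for each, which is the smallest p that 4 libraries allow. With a pseudocount of 0.1 in place of 1, the difference between Lyn and Fgr was 7.0.

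Syk had the highest mean level of the 9 genes. Syk (ENSMUSG00000021457.14, chr13:52583173-52648792, plus strand), the kinase recruited to phosphorylated ITAMs, had 51.23, 61.16, 68.61 and 86.75 TPM. In these values replicate 1 was its lowest library, while it was the highest for Lyn. On the target tables Syk had 26.61, 20.72, 18.58 and 23.99 TPM, so replicate 1 was the highest library for both genes there. Btk (ENSMUSG00000031264.13, chrX:134542336-134583570, minus strand), best known from B cells and also used in macrophages, had 20.31, 13.47, 12.35 and 18.98 TPM. Pax5, which defines B cells, had 1.0, 3.0, 2.0 and 0.0 expected counts. However, 2 of the 9 B cell markers, Cd22 and Ighm, averaged at least 1 TPM. Whether RNA of B cells adds to the level of Btk was not tested. The level of Syk exceeded that of Btk by 1.29, 2.10, 2.38 and 2.13 on the log2(TPM + 1) scale, with a mean of 1.98 ± 0.47 (SD, n = 4; exact two-sided sign-flip permutation test, p = 0.125, the smallest possible). On log2(CPM + 1), with no length correction, the mean difference was 3.11.

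Csk (ENSMUSG00000032312.7, chr9:57626646-57653631, minus strand), the kinase that holds Src-family kinases inactive, had 47.98, 42.92, 42.04 and 59.64 TPM. Its difference from Lyn in log2(TPM + 1) was -0.53, 0.19, 0.25 and 0.09, with a mean of 0.00 ± 0.36 (SD, n = 4; exact two-sided sign-flip permutation test, p = 1.0). Lyn was therefore above Csk in replicate 1 and below it in the other 3 libraries, where the mean difference without replicate 1 was 0.18 ± 0.08. Set against the 4 Src-family members together, Csk amounted to 0.602 of their summed TPM in replicate 1 and to 1.01, 1.06 and 0.953 in replicates 2 to 4.

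The hematopoietic phosphatase gene Ptpn6 was expressed at a higher level than the ubiquitous Ptpn11. Ptpn6 (ENSMUSG00000004266.15, chr6:124720707-124738714, minus strand), which acts on ITIM-bearing receptors as an inhibitor, had 50.19, 43.44, 40.37 and 59.78 TPM. Its exons overlap the opposite-strand gene Gm20531, which had at most 9.2 expected counts in a library. Ptpn11 (ENSMUSG00000043733.14, chr5:121130533-121191397, minus strand), which promotes growth factor signaling to Ras, had 15.22, 9.88, 9.51 and 12.91 TPM. In TPM, replicates 1 and 4 were the high libraries for both, but this did not hold on the TMM-scaled counts used below. There Ptpn6 had 150.3, 176.9, 164.4 and 164.4 CPM in replicates 1 to 4, lowest in replicate 1. Ptpn11 had 122.5, 107.5, 104.0 and 95.02 CPM, lowest in replicate 4. The level of Ptpn6 exceeded that of Ptpn11 by 1.66, 2.03, 1.98 and 2.13 in log2(TPM + 1), a mean of 1.95 ± 0.20 (SD, n = 4; exact two-sided sign-flip permutation test, p = 0.125, the smallest possible). On log2(CPM + 1), which is not corrected for the longer transcripts of Ptpn11, the mean difference was 0.61. In TPM, the ratio of Ptpn6 to Ptpn11 was 3.30, 4.40, 4.25 and 4.63.

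**Figure D2:**
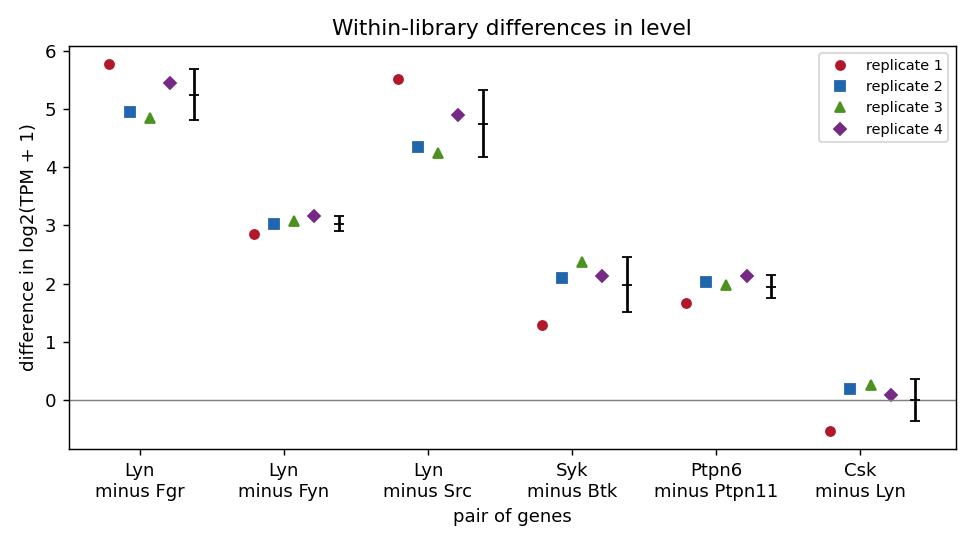
Differences in log2(TPM + 1) between pairs of genes within each library. Points are libraries, the bar beside them is the mean ± SD (n = 4), and the line marks 0; Csk minus Lyn is the pair whose libraries lie on both sides of it.

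By mean TPM the order was Syk, Lyn, Ptpn6, Csk, Btk, Ptpn11, Fyn, Src and Fgr. The places from Btk downwards were the same in all 4 libraries, and each of those genes differed from its neighbour by more than the SD of the difference. The first 4 places were not resolved. Syk and Lyn differed by a mean of 0.46 ± 0.61 in log2(TPM + 1), Lyn and Ptpn6 by -0.01 ± 0.32, and Ptpn6 and Csk by 0.01 ± 0.05 (SD, n = 4 each). Syk was above Lyn by 0.69, 0.95 and 0.62 in replicates 2 to 4, whereas in replicate 1 the difference was -0.44. From Csk to Btk the level dropped by a mean difference of 1.52 ± 0.22, the first step that was beyond the spread.

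TPM in these libraries is compressed by the 7SL RNAs Rn7s1 and Rn7s2, components of the signal recognition particle, which took 57.08% to 63.33% of all TPM. When TPM was rescaled without them, the mean level of Lyn was 121.8 TPM, that of Syk 166.4 TPM, that of Src 2.03 TPM and that of Fgr 0.681 TPM. Differences between libraries were therefore tested on counts scaled by TMM, which matches libraries on the bulk of their genes, and not on TPM. On that scale Ptpn6 and Fgr had the smallest SD of log2 CPM among the members, at 0.096 and 0.10. The median over all genes tested was 0.255. Fgr had only 45.0 to 71.0 expected counts, where counting error is large, so its small SD does not show a steady level. Src varied most, with an SD of 0.53, then Fyn with 0.38, Syk with 0.37 and Lyn with 0.26.

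Replicate 1 differed from the other 3 libraries in 3 of the 9 genes, where Fyn and Lyn were higher and Syk was lower. In the same comparison 22.0% of all genes tested were called, 14.5% higher and 7.58% lower, so that the share among the members stands not far from that background. Fyn had 35.65 CPM in replicate 1, against 21.62, 21.39 and 20.03 CPM in replicates 2 to 4, a log2 fold of 0.76 (SE 0.09, edgeR adjusted p = 0.00814). Its other 3 libraries lay within a narrow range well below replicate 1. Lyn had 332.6 CPM in replicate 1, against 242.2, 223.5 and 235.9 CPM in the other 3, a log2 fold of 0.51 (SE 0.10, edgeR adjusted p = 0.0256). This call was lost without replicate 3 (edgeR adjusted p = 0.0575) and without replicate 4 (edgeR adjusted p = 0.0616), at folds of 0.47 and 0.44.

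Syk had 380.2 CPM in replicate 1, against 617.8, 676.1 and 571.6 CPM in the other 3, a log2 fold of -0.71 (SE 0.15, edgeR adjusted p = 0.0287). Replicate 1, a single library, lay below each of the other 3. The call was lost on the target tables, where counts were estimated from reads without the alignment (fold -0.56, edgeR adjusted p = 0.0983), and without replicate 2 (fold -0.71, edgeR adjusted p = 0.0599). Src had 2.88 CPM in replicate 1, against 6.09, 6.55 and 4.47 CPM, a log2 fold of -0.98 (SE 0.29) that was not called (edgeR adjusted p = 0.0714), although it was without replicate 4 (fold -1.21, edgeR adjusted p = 0.0232).

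Btk, Csk, Fgr, Ptpn6 and Ptpn11 were not called in replicate 1, with log2 folds of 0.22 (SE 0.09), -0.28 (SE 0.11), -0.08 (SE 0.39), -0.17 (SE 0.10) and 0.26 (SE 0.10). The large standard error of Fgr goes with its 45.0 to 71.0 counts, at which a moderate difference was not detectable. Fyn was the member called in 7 of 7 alternative settings. In replicates 2, 3 and 4 no member was called against a background of 0.0% in each, and their log2 folds ran from -0.39 to 0.55. Of all genes, 277, 135 and 104 had an unadjusted edgeR p under 0.05 in these comparisons, none of them a member, and DESeq2 called 8, 3 and 17 genes, again with 0 members.

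Values of 3 further genes, chosen after they were seen and given in TPM with no test, are set beside the calls in replicate 1; their part in the member values was not tested. Mcm5, a DNA replication factor, had 25.34 TPM in replicate 1, against 2.25, 2.99 and 3.44 TPM in the other 3. Tnf, an inflammatory cytokine, had 107.6 TPM there, against 12.04, 18.53 and 59.08 TPM, whereas Fos, an immediate early gene, had 157.8 TPM, within the other 3 at 58.46, 215.8 and 210.6 TPM. The neutrophil and B cell marker sums were lowest in replicate 1, at 20.93 and 3.57 TPM, and the summed macrophage markers, at 6616 TPM, lay within the range of the other 3.

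**Figure D3:**
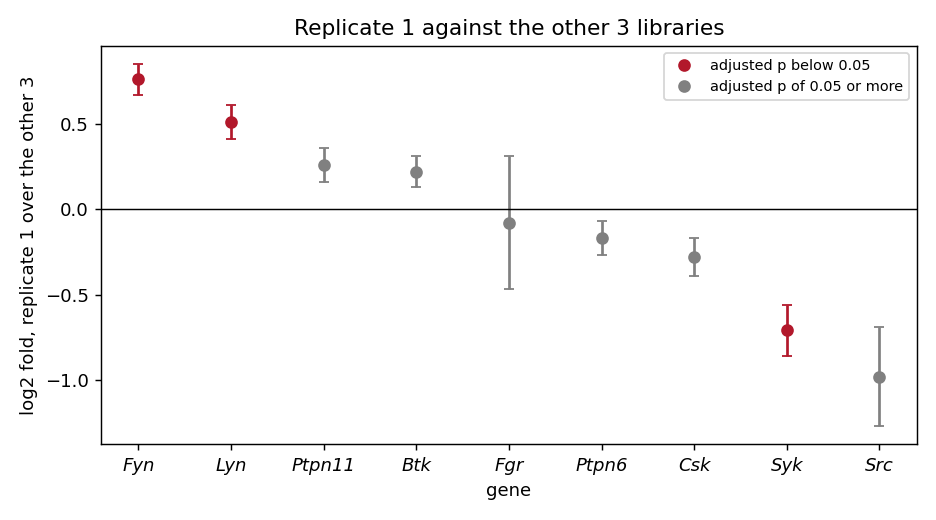
log2 fold of each gene in replicate 1 over the other 3 libraries (points) with its standard error (bars), from the edgeR fit on TMM-scaled counts. Fyn and Lyn above 0 and Syk below 0 have an adjusted p under 0.05; Src lies lowest with a wider error.

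The 9 genes have 59 annotated transcripts, of which 15 averaged at least 10% of their gene in the deposited transcript tables. All 15 are coding. Transcripts of the coding biotype made up a median of 99.79%, 99.59%, 99.36% and 99.12% over the 9 genes in replicates 1 to 4, or 99.47% ± 0.29 (SD, n = 4). Over the 7941 genes that averaged 1 TPM or more and have transcripts of both kinds, the median was 96.62%, 96.88%, 93.31% and 92.45%. The 9 genes include Src and Fgr, which averaged under 1 TPM, so the sets differ in that filter. The median was lower in replicates 3 and 4 in both sets, but not every member followed it. Csk had 98.50%, 94.91%, 96.35% and 98.98%, and Fgr 100.00% in every library.

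Syk carried the largest share of retained-intron transcripts in replicates 3 and 4, at 1.63%, 0.92%, 5.69% and 6.35% in replicates 1 to 4. Those of Csk were 1.50%, 4.96%, 3.65% and 1.02%, with the highest value in replicate 2. Malat1, a noncoding RNA retained in the nucleus, had 306.5, 242.2, 983.9 and 940.6 TPM, and was thus also higher in replicates 3 and 4. The part of nuclear RNA in the shares of Syk was not tested. Among all genes of that kind with a retained-intron transcript, the median share was 1.50%, 1.19%, 4.12% and 4.88%.

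Lyn was expressed as both of its coding forms, with the longer one in excess in every library. Lyn-201, which holds the 63-base extension and encodes 512 codons, took 68.43%, 61.73%, 59.75% and 65.11% of the gene. Lyn-202, with 491 codons, took 29.90%, 37.28%, 37.09% and 29.46%. The means were 63.75% ± 3.82 and 33.43% ± 4.34 (SD, n = 4), and the ranges of the forms did not overlap. Replicates 2 and 3 had the larger share of the short form. On the target tables the long form averaged 67.66% ± 4.00 and the short one 26.44% ± 2.71.

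Nearly all Fyn transcripts carried the T exon. Transcripts with it (Fyn-201, Fyn-204, Fyn-205 and Fyn-207) summed to 94.09%, 97.64%, 91.73% and 87.61%, against 4.11%, 2.36%, 3.52% and 2.75% for Fyn-202 with the B exon. Fyn-206, which has neither, had 1.80%, 0.00%, 4.74% and 9.65%. The T form was far ahead of the others in each library and also on the target tables, at 86.11% ± 7.06 (SD, n = 4). Fyn-201 and Fyn-205 encode the same 534 codons and start at different sites. Their split was uneven between libraries, with Fyn-205 at 42.35%, 30.87%, 3.10% and 30.24%, and the deposited interval of its TPM in replicate 1 ran from 1.17 to 3.95.

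Syk transcripts with the linker exon summed to 96.42%, 97.23%, 92.46% and 91.50%, and Syk-202, which skips it, stayed at 1.95%, 1.85%, 1.85% and 2.15%. The annotated coding part of Syk-202 also ends earlier, so its share rests on more than that exon. Syk-203 and Syk-201 encode the same 629 codons and start at chr13 positions 52583173 and 52596853. Syk-203 had 58.82%, 61.94%, 62.24% and 58.39%, and Syk-201 had 37.60%, 35.29%, 30.22% and 33.11%, so the upstream start led in all 4 libraries.

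Ptpn6 was almost wholly in the form with the proximal first coding exon, at 93.34%, 94.13%, 92.92% and 95.77%. This start is the one known from blood cells. Forms with the distal exon, known from epithelial cells, summed to 6.66%, 5.87%, 6.55% and 3.97%. The target tables gave the proximal forms 78.68% ± 2.69 and the distal ones 4.66% ± 1.16 (SD, n = 4), so both tables put the proximal start first.

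Ptpn11 was split between both of its forms in every library. Ptpn11-202, without the 12 bases, had 72.92%, 71.57%, 69.94% and 71.76%, and Ptpn11-201, with them, had 26.87%, 28.35%, 29.42% and 27.36%. The means were 71.55% ± 1.23 and 28.00% ± 1.13 (SD, n = 4). On the target tables they were 69.65% ± 4.78 and 23.97% ± 1.35, so Ptpn11-202 led in both tables while its spread between libraries was wider there. The forms differ by 4 codons of 597.

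**Figure D4:**
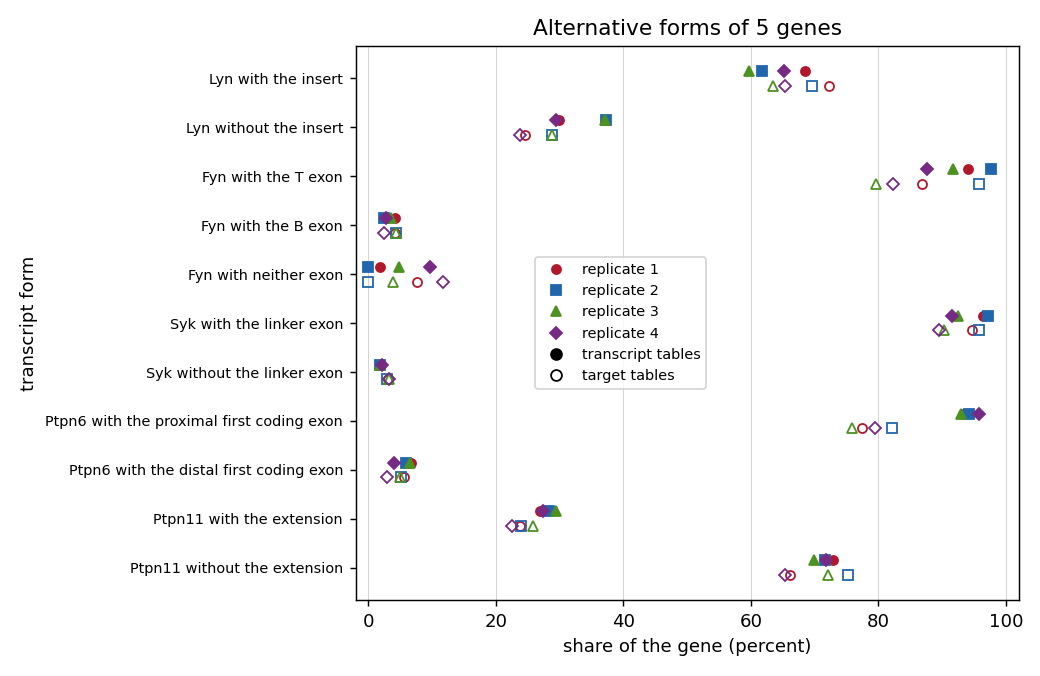
Share of each alternative form (percent of its gene) by library, with filled symbols for the transcript tables and open symbols for the target tables. Lyn and Ptpn11 show 2 forms at substantial levels, whereas 1 form of Fyn, Syk and Ptpn6 takes most of the gene in both tables.

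Src, with few counts, had no transcript with the neuronal exon above 0.00% in the transcript tables, and the target tables gave those forms 1.66%, 4.28%, 0.00% and 0.00%. Its coding transcripts Src-201 and Src-204 share a coding sequence of 535 codons, and their split, with Src-201 at 27.53%, 55.78%, 81.08% and 66.65%, was not resolved at this depth. Fgr was assigned to Fgr-201 at 100.00% in every library, and to the same transcript at 41.40% to 74.27% on the target tables. Btk was assigned to Btk-201 at 97.05% to 99.59%. Csk was divided between Csk-201, at 39.67%, 50.67%, 61.52% and 41.45%, and Csk-209, at 51.16%, 38.12%, 29.70% and 45.91%, which encode the same 450 codons and start at different sites. The leading Csk transcript was Csk-209 in replicates 1 and 4 and Csk-201 in replicates 2 and 3. The target tables put Csk-201 first in every library. The most abundant transcript was the same in both tables in all 4 libraries for 7 of the 9 genes, the exceptions being Fyn and Csk.

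The coding exons were compared within the Src-family members and within the phosphatases. Lyn-201, Fgr-201, Fyn-201 and Src-201 have 12, 11, 11 and 11 coding exons, and 6 coding exon lengths, of 99, 104, 150, 77, 154 and 132 bases, occur in all of them. Ptpn6-202 and Ptpn11-202 have 15 coding exons each and share 10 lengths. The first coding exon of Ptpn11-202 has 14 bases, as has the rarely used distal one of Ptpn6, while the proximal exon used in these cells has 8.

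The wider pathway was represented by 61 further genes in 7 lists, of which 50 averaged at least 1 TPM and 55 were tested. In replicate 1 against the other 3, 5 of the 55 were higher and 10 were lower, beside the backgrounds of 14.5% and 7.58% given above, with edgeR adjusted p from 0.00345 to 0.0477. Their calls in replicates 2, 3 and 4 were 0. The members' median log2 fold in replicate 1 was -0.08, against 0.00 for all genes tested.

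Among the 5 other Src-family kinases, 2 were tested and neither passed, and Lck, the T cell kinase, had a mean of 0.0825 TPM. Of 6 relatives of Tec, Zap70 and Csk, Tec averaged 17.33 ± 4.43 TPM and Matk, a Csk homologue, 1.77 ± 0.45 TPM (SD, n = 4), and 0 of 3 tested passed. Zap70, the lymphocyte relative of Syk, averaged 0.0125 TPM.

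Of 12 regulators of Src kinases, 11 averaged at least 1 TPM, led by Ptprc (CD45), a receptor phosphatase that acts on the inhibitory tail tyrosine, at 57.70 ± 15.29 TPM, and Ptpra at 51.76 ± 13.91 TPM (SD, n = 4). In replicate 1, 1 was higher, Ptpn12 (log2 fold 0.34), and 3 were lower, Ptprc (-0.45), Ptpn1 (-0.70) and Pag1 (-0.35), the adaptor that brings Csk to the membrane. Of 3 inositol phosphatases, Inpp5d (SHIP1) was the most abundant at 58.45 ± 16.37 TPM and was higher in replicate 1 (log2 fold 0.40), and Inppl1 had 18.12 ± 3.87 TPM.

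The ITAM chains Tyrobp (DAP12), at 859.9 ± 173.2 TPM, and Fcer1g, at 610.2 ± 139.3 TPM (SD, n = 4), led their list of 7, all above 1 TPM. Of these, 0 were higher in replicate 1 and 2 were lower, Clec7a (Dectin-1, a receptor for fungal glucans) with a log2 fold of -1.73 and Fcgr4 with -0.64. Of 10 ITIM receptors 8 averaged at least 1 TPM, led by Sirpa, the receptor for CD47, at 546.4 ± 60.6 TPM and Fcgr2b at 150.1 ± 50.7 TPM. Of the 10, Pilra was higher in replicate 1 (log2 fold 1.83), and Pirb (-0.74) and Cd300a (-1.16) were lower.

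All 18 adaptors and substrates averaged at least 1 TPM, with Fyb (ADAP) at 124.1 ± 28.5 TPM and Pik3ap1 (BCAP) at 122.1 ± 40.5 TPM (SD, n = 4) the most abundant. In replicate 1, Dok2, an adaptor that restrains Ras, was higher (log2 fold 1.55) and so was Lcp2 (SLP-76, 0.43). Blnk (-0.57), Pik3cd (-0.46) and Grb2 (-0.48) were lower, and the other 13 did not pass.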

How the data were processed

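Expected counts and estimated counts, which need not be whole, TPM and the percent of a gene in each transcript were used as deposited by the authors. Per the text that accompanies the deposited files, the build is mm10 with GENCODE M21, gene and transcript tables come from a transcriptome alignment and target tables from reads. Quantifiers, their versions and strand use (not given in the sources used here) could not be checked. The transcript tables also hold intervals of TPM deposited by the authors. Features that name no gene held 0.0267% to 0.407% of the expected counts and were left out.

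Expected counts were rounded and scaled by TMM in edgeR 4.0.16 (R 4.3.3), keeping the 14041 genes that averaged 10 counts or more. Every library was set against its other 3 in edgeR's quasi-likelihood test, Benjamini-Hochberg adjusted over all genes tested, with calls under 0.05, and the lone replicate is assumed to vary like the others. DESeq2 1.42.0 was an alternative. The procedure was tested on simulated data in which every library had the same fixed spread. A lone library with a wider spread was not covered by it. CPM is TMM-scaled. A floor is 3 counts, which covers counting error only, since PCR duplicates are counted too where no molecular identifiers are used. Levels were compared within libraries as log2(TPM + 1), with an exact two-sided sign-flip permutation test. Named were all 9 members, their transcripts averaging at least 10%, and of each pathway list the 2 with the highest mean TPM and any called; transcripts below 10% and a few context genes (Mcm5, Tnf, Fos, Malat1, Gm26857, Zap70, the neuronal Src forms) were named besides. Some list genes, sequences and values are not reported here. Members and lists were chosen with earlier results of these data known. Python 3.11.15 with numpy 2.4.6, pandas 2.3.3 and matplotlib 3.10.9 did the rest.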

Additional observations from a re-analysis of the deposited data

Results flagged for a closer look

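In 31 sets of 4 library values of the 9 genes, 3 held a library whose gap to its nearest neighbour was large for the range of the set, where chance gives about 1 in 20. Fyn had 35.65 CPM in replicate 1, against 20.03 to 21.62 CPM in the other 3. Src had 0.56 TPM in replicate 1, against 0.88 to 0.91 TPM in the other 3, a gap absent from TPM on the target tables. Coding transcripts of Src without the neuronal exon took 94.04% of the gene in replicate 2, against 100.00% in the other 3, a value that rests on few counts. With the other 3 tied at the ceiling, any departing value would be flagged, so the chance rate does not hold for that set. The same genes entered the screen in TPM and in CPM, so the sets are not independent.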

How the results depend on the processing

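No analysis paired between conditions was possible because the libraries form 1 group, whereas differences between genes were taken within each library. The differences of Lyn from Fgr, Fyn and Src, of Syk from Btk and of Ptpn6 from Ptpn11 kept their direction under each alternative run (a pseudocount of 0.1, CPM, target tables, TPM without Rn7s1 and Rn7s2, and each replicate left out), but not their size: they ran from 4.02 to 7.0, 2.58 to 3.36, 3.81 to 5.73, 1.76 to 3.11 and 0.61 to 2.04 in that order. Csk minus Lyn was -0.60 on log2(CPM + 1), a scale that is not length-corrected, and ran from -0.08 to 0.18 with 1 replicate left out. The Lyn share was 87.77% on the target tables, and its value over a wider set of family members is not reported here. The coding share of the members was 93.76% on the target tables and 99.77% by expected counts. DESeq2 called 8, 3 and 17 genes in replicates 2, 3 and 4. Without 1 replicate the calls ran from 0 to 82 in replicate 2, the 82 without replicate 1, and from 0 to 1 in replicate 4, which also had 1 with no filter on low counts. Calls in replicate 1 ran from 2525 to 3194 with 1 replicate left out and from 2743 to 3193 otherwise. Of the members' folds in replicate 1, Fgr reversed to 0.10 on the target tables, 4 alternatives ended a call of Lyn or Syk and 1 added Src, all given above. Syk minus Lyn, chosen after seeing the data, was 0.75 without replicate 1. Mean TPM of every member moved on the target tables and on rescaling, while the 5 planned differences above did not turn. The cause of each change was not tested. Depth limits Src and Fgr.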
